A study of Mus musculus with 6 samples.

Results

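The genes described here are 10 mRNAs that encode stress granule core proteins and other cytoplasmic messenger ribonucleoprotein (mRNP) proteins, namely G3bp1, G3bp2, Caprin1, Fmr1, Fxr1, Fxr2, Tia1, Tial1, Atxn2 and Ddx6. They were chosen by name for proteins that work with Ybx1 on cytoplasmic mRNA, and all 10 were found among the 17348 genes of the deposited table. mRNA of E18.5 mouse cortex was sequenced as 3 control and 3 Ybx1 cKO libraries. The cKO embryos carry Ybx1 fl/fl and Nestin-Cre, which deletes the gene in neural stem cells and their progeny. Whether vessel, blood and microglial cells of the tissue keep it was not tested. The controls are littermates that the labels call WT. The study also uses Ybx1 fl/fl animals without Cre as controls, and whether these controls carry floxed alleles is not given in the sources used here. The floxed line was made and bred in C57BL/6J, the background of the Cre line is not given in the sources used here, the labels name no treatment, and they do not say how many embryos entered a library.

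In the cytoplasm mRNAs carry a coat of RNA-binding proteins, of which Ybx1, a cold-shock domain protein, is one of the most abundant. When translation initiation stalls, untranslated mRNPs condense into stress granules around G3BP proteins, while P-bodies hold mRNAs that are repressed or bound for decapping. In neurons, related granules with FMRP and Caprin1 carry mRNAs into axons and dendrites and hold back their translation, and the loss of FMRP causes fragile X syndrome. The comparison asks whether the mRNAs of these partner proteins differ in cortex that lacks Ybx1.

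Several of these genes are close relatives, so coding sequences of relatives were set side by side to see whether a sequenced fragment could belong to either. The G3bp1 and G3bp2 coding sequences were identical at 69.1% of 1359 aligned bases, Tia1 and Tial1 at 76.2% of 1105, Fxr1 and Fxr2 at 69.0% of 1934, Fmr1 and Fxr1 at 66.0% of 1860, and Fmr1 and Fxr2 at 65.7% of 1793. The longest run of identical bases was 17 for G3bp1 and G3bp2, 17 for Tia1 and Tial1, 20 for Fxr1 and Fxr2, and 14 for each of the pairs with Fmr1. The stretches that hold these runs are shown for 3 pairs, from transcripts of GENCODE M21 (GRCm38, the build in the submitters' processing notes), 60 coding bases each in the 5′ to 3′ direction of the mRNA. Capitals mark the longest run that both relatives share.
G3bp1: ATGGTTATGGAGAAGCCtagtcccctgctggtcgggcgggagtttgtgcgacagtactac
G3bp2: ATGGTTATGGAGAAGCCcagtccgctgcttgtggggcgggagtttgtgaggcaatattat
Tia1: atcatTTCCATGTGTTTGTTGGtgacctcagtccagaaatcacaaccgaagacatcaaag
Tial1: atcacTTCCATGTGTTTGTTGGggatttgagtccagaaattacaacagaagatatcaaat
Fmr1: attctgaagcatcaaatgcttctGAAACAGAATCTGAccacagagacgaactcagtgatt
Fxr1: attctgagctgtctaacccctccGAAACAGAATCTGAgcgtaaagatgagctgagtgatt
The G3bp1 and G3bp2 stretches are the first 60 coding bases, both in exon 2, at chr11:55485644-55485703 on the plus strand and chr5:92073195-92073254 on the minus strand. The Tia1 stretch is in exon 6, at chr6:86420324-86420383 on the plus strand, and the Tial1 stretch is in exon 5, at chr7:128448149-128448208 on the minus strand. The Fmr1 stretch is in exon 15, at chrX:68712237-68712296 on the plus strand, and the Fxr1 stretch is in exon 13, at chr3:34061834-34061893 on the plus strand. Each stretch has differences on at least one side of the run. Windows of 50 bases were taken from a single transcript per gene, that with the longest coding sequence. None of these windows occurred in a transcript of another member, and exons outside the chosen transcripts were not searched.

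Windows of 50 bases that also occur in transcripts of other annotated genes were found for 4 members. They made up 8.83% of the windows of the G3bp1 transcript, 6.87% for Tia1, 4.49% for Ddx6 and 1.58% for Fxr1, mostly in Gm5913, Gm44790, Gm13410 and Gm17795, which were not analysed here. Overlaps of member exons with other genes were taken as the largest with any 1 exon of the other gene. On the other strand, G3bp2 overlaps Gm26582 over 2050 bases, Fxr1 overlaps Dnajc19 over 178 and Atxn2 overlaps Sh2b3 over 99. On the same strand, Tia1 overlaps Gm44790 over 173 bases, Fmr1 overlaps Gm27838 over 72 and G3bp1 overlaps Mir7652 over 56. The strandedness of the counting is not given in the sources used here, and it would not resolve overlaps on the same strand. The counts of these members are uncertain to that extent.

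Library totals ranged from 15091951 to 16885451 estimated counts. Values below are normalised counts (CPM, counts relative to the library total after TMM scaling), unless TPM is named. A floor of 3 counts lay between 0.176 and 0.206 CPM, far under every member. Counting error is a small part of the members' control spread, but not of the narrow cKO spread of some members. Of the cortex markers, Emx1, Neurod2, Neurod6 and Tbr1 summed to 1669 to 1941 CPM in control and 1437 to 1689 CPM in cKO libraries, with 0 of 4 at an unadjusted p-value under 0.05, and none of the 5 choroid plexus markers had over 5 counts in any library. Blood, microglial and striatal marker sums overlapped between the groups (982 to 1349 and 997 to 1215 CPM, 45.4 to 56.2 and 51.7 to 53.8 CPM, 33.5 to 52.8 and 18.4 to 58.9 CPM in control and cKO), and those of 5 endothelial genes were at 213 to 231 CPM in control and 230 to 304 CPM in cKO, with 1 of 5 at an unadjusted p-value under 0.05 and 0 after adjustment. Ybx1 was at 1015, 1297 and 956 CPM in control and 24.0, 24.8 and 24.9 CPM in cKO (log2 fold change -5.47, adjusted p = 6.95e-07). Of the controls, replicate 2 stood apart, with a chi-square per degree of freedom of 41.5 and 65.4 against the other controls, where these had 10.5 between them, and with 3.62% of its counts on cytosolic ribosomal protein genes, where the other controls had 2.22% and 2.47% and the cKO libraries 1.77% to 1.85%. Transcripts of 4 Y-linked genes summed to 215 to 295 CPM in control and 0.929 to 1.47 CPM in cKO libraries, so embryo sex and genotype cannot be told apart. Replicates are separate samples by the labels and, by the series' description, different biological replicates.

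None of the 10 mRNAs passed the test in cKO cortex, and the fitted changes were small in both directions. All 10 passed the filter on low counts. In edgeR's quasi-likelihood fit of 13570 genes, with p-values adjusted over all of them, 0 of 10 were below 0.05, where 0.0737% of all genes tested were (0.0221% higher and 0.0516% lower in cKO), and 0 of 10 had an unadjusted p-value under 0.05, where 6.62% of all genes did. DESeq2 also called 0 of 10 after adjustment. Of the 10 genes, 5 had a log2 fold change above 0 and 5 below, from -0.30 for Ddx6 to 0.18 for Fmr1. Their median was 0.0193, beside 0.00272 over all genes tested. Adjusted p-values lay between 0.792 and 0.953. The 95% intervals of the fold changes set how large a difference these libraries leave possible, and they reached from a change of -36.7% for Ddx6 to one of 46.3% for Fmr1. In bulk tissue, fewer cells of a type and less RNA per cell cannot be told apart.

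**Figure D1:**
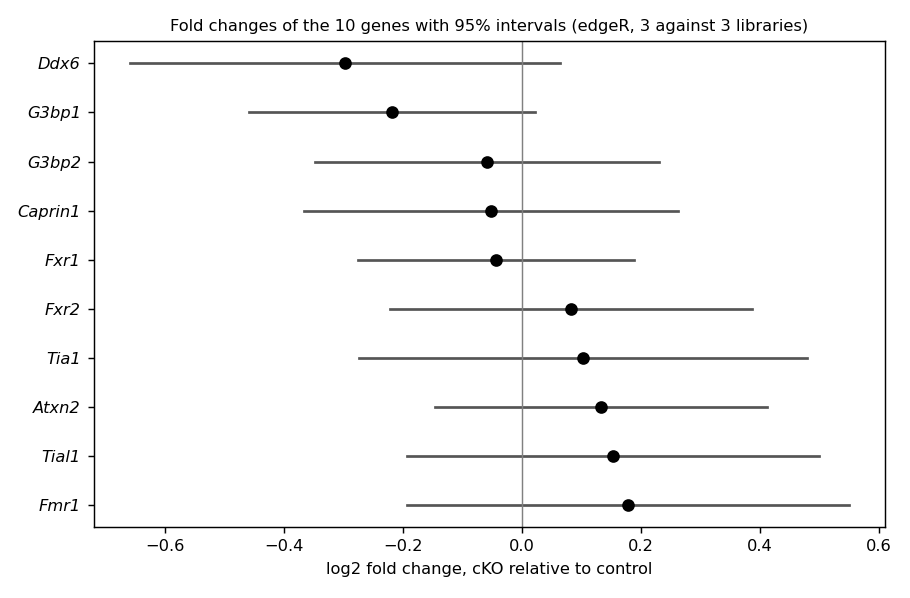
Log2 fold change of each of the 10 genes in cKO relative to control cortex on the x axis (edgeR, points) with its 95% interval (lines), ordered by size with the lowest value at the top. All 10 intervals include 0, and Ddx6 (-0.30) and G3bp1 (-0.22) lie farthest to the left.

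G3bp1 and G3bp2 encode the RNA-binding scaffold proteins whose condensation with RNA starts a stress granule. G3bp1 (chromosome 11, 55469685 to 55504838, plus strand) was at 216, 218 and 188 CPM in control and 178, 184 and 174 CPM in cKO libraries. All 3 cKO values lay under the lowest control, which was replicate 3. The log2 fold change was -0.22 (standard error 0.11, unadjusted p = 0.0698, adjusted p = 0.792 by edgeR), which corresponds to a change of -14.0% with a 95% interval from -27.2% to 1.52%. It was -0.33 with trends of transcript length and GC content removed from the libraries (unadjusted p = 0.0320, adjusted p = 0.311 by edgeR) and -0.28 without control replicate 3 (unadjusted p = 0.0278, adjusted p = 0.320). Over the 16 alternatives it stayed below 0, from -0.33 to -0.0682, with adjusted p-values from 0.213 to 1. On the authors' TPM scale, where counts are divided by transcript length and set to a common sum, the control libraries had 196, 174 and 177 TPM and the cKO libraries 174, 177 and 169.7 TPM of G3bp1, and there the groups overlapped.

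G3bp2 (chromosome 5, 92052146 to 92083719, minus strand) was at 439, 368 and 476 CPM in control and 378, 430.4 and 424 CPM in cKO libraries. The cKO libraries lay within the range of the controls, whose replicate 2 was the lowest of all. The log2 fold change was -0.06 (standard error 0.13, adjusted p = 0.941 by edgeR). Without control replicate 3 it was 0.0254, and without control replicate 2 it was -0.16, so its sign depended on single controls. Within a library, the ratio of G3bp1 to G3bp2 TPM was 0.802, 0.968 and 0.643 in control and 0.768, 0.693 and 0.668 in cKO. G3bp2 was the more abundant relative in all 6 libraries.

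Caprin1 (chromosome 2, 103762941 to 103797649, minus strand) encodes a G3BP-binding protein of neuronal RNA granules. It was at 948, 698 and 952 CPM in control and 828, 836 and 842 CPM in cKO libraries. The cKO libraries lay between control replicate 2 and the other controls, within a much narrower range. The log2 fold change was -0.05 (standard error 0.14, adjusted p = 0.953 by edgeR), and it turned to 0.0178 without control replicate 1 and 0.0212 without control replicate 3. Without control replicate 2 it was -0.18 (adjusted p = 0.353), with an unadjusted p of 0.0324.

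The fragile X family of polyribosome-associated RNA-binding proteins, Fmr1, Fxr1 and Fxr2, gave no common direction. Fmr1 (X chromosome, 68678541 to 68717963, plus strand), which encodes FMRP, was at 115, 97.8 and 156 CPM in control and 132, 138 and 146 CPM in cKO libraries. All cKO libraries were above control replicates 1 and 2 and below control replicate 3. The log2 fold change was 0.18 (standard error 0.16, adjusted p = 0.872 by edgeR), or a change of 13.1% with a 95% interval from -12.5% to 46.3%. It was 0.38 without control replicate 3 (unadjusted p = 0.0117, adjusted p = 0.269) and 0.0383 without control replicate 2. Fmr1 is the only X-linked member, and the Y-linked transcripts that separated the groups above move with this comparison. Their part in it was not tested.

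Fxr1 (chromosome 3, 34019943 to 34070322, plus strand) was at 101, 92.0 and 106 CPM in control and 98.0, 93.7 and 98.5 CPM in cKO libraries, which gave a log2 fold change of -0.04 (adjusted p = 0.946 by edgeR, standard error 0.10) that was 0.0053 without control replicate 3. Fxr2 (chromosome 11, 69632990 to 69653297, plus strand) was at 158, 194 and 148 CPM in control and 158, 192 and 178 CPM in cKO libraries, which gave a log2 fold change of 0.08 (adjusted p = 0.922 by edgeR, standard error 0.13). In both genes the groups overlapped in CPM. On the TPM scale Fxr2 was at 129.8, 139.9 and 126.6 TPM in control and 140.4, 169.1 and 157.9 TPM in cKO libraries. There its groups were separate by a small gap, on a scale where the median of all genes was also higher in cKO. The share of all genes with separate groups on TPM was not taken. Fxr2 ran against most other members: it was highest in control replicate 2, where Fxr1 was lowest, and over the 6 libraries the log2 CPM values of Fxr1 and Fxr2 had a Pearson r of -0.914. This is a description of libraries that differ in depth and composition, with n = 6.

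TIA1 and TIAR, encoded by Tia1 and Tial1, are RNA-recognition-motif proteins that bind U-rich mRNA and join stress granules through prion-like domains. Tia1 (chromosome 6, 86404219 to 86433405, plus strand) was at 369, 307 and 482 CPM in control and 448, 379 and 417 CPM in cKO libraries. Tial1 (chromosome 7, 128439777 to 128461717, minus strand) was at 154, 151 and 212 CPM in control and 212, 175 and 188 CPM in cKO libraries. In both genes all cKO libraries exceeded control replicates 1 and 2, and control replicate 3 had the highest value, shared at this rounding with cKO replicate 1 for Tial1. The log2 fold changes were 0.10 for Tia1 (standard error 0.17, adjusted p = 0.922 by edgeR) and 0.15 for Tial1 (standard error 0.15, adjusted p = 0.883). Without control replicate 3 they were 0.29 and 0.33 (adjusted p = 0.368 and 0.317), with an unadjusted p of 0.0264 for Tial1. Without control replicate 2 they were -0.0370 and 0.0683, so that Tia1 changed its sign. The 2 genes followed each other closely, with a Pearson r of 0.931 over the 6 libraries, given as a description.

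Atxn2 (chromosome 5, 121711337 to 121816493, plus strand) encodes ataxin-2, a partner of poly(A)-binding protein whose expanded polyglutamine tract causes a spinocerebellar ataxia. It was at 102, 78.6 and 102 CPM in control and 103, 104 and 102.0 CPM in cKO libraries. All 3 cKO values lay above the highest control, but control replicates 1 and 3 were within 1 CPM of the lowest cKO library, and most of the fitted difference came from control replicate 2. The log2 fold change was 0.13 (standard error 0.12, adjusted p = 0.872 by edgeR) with all libraries and 0.0201 without control replicate 2.

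Ddx6 (chromosome 9, 44604892 to 44640731, plus strand) encodes a DEAD-box helicase of P-bodies that takes part in translational repression and decapping. It had the lowest fitted fold change of the 10. Ddx6 was at 592, 434 and 672 CPM in control and 434, 469.6 and 479 CPM in cKO libraries. The cKO libraries were well below control replicates 1 and 3 and close to or above control replicate 2, so the groups overlapped. The log2 fold change was -0.30 (standard error 0.16, unadjusted p = 0.0960, adjusted p = 0.796 by edgeR), or a change of -18.6% with a 95% interval from -36.7% to 4.58%. Its call depended on control replicate 2 and on whether trends with GC content and transcript length were removed from the libraries. Without that library the log2 fold change was -0.46 (adjusted p = 0.0427), and with the trends removed it was -0.39 (adjusted p = 0.0249). Over the 16 alternatives the log2 fold change of Ddx6 stayed below 0, from -0.46 to -0.13, with adjusted p-values from 0.0249 to 1, and it passed in 3 of them, the third being a variant of the trend removal (adjusted p = 0.0445). The background also rose under these settings, from 10 genes with an adjusted p-value under 0.05 to 184 with the trends removed and 122 without control replicate 2.

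**Figure D2:**
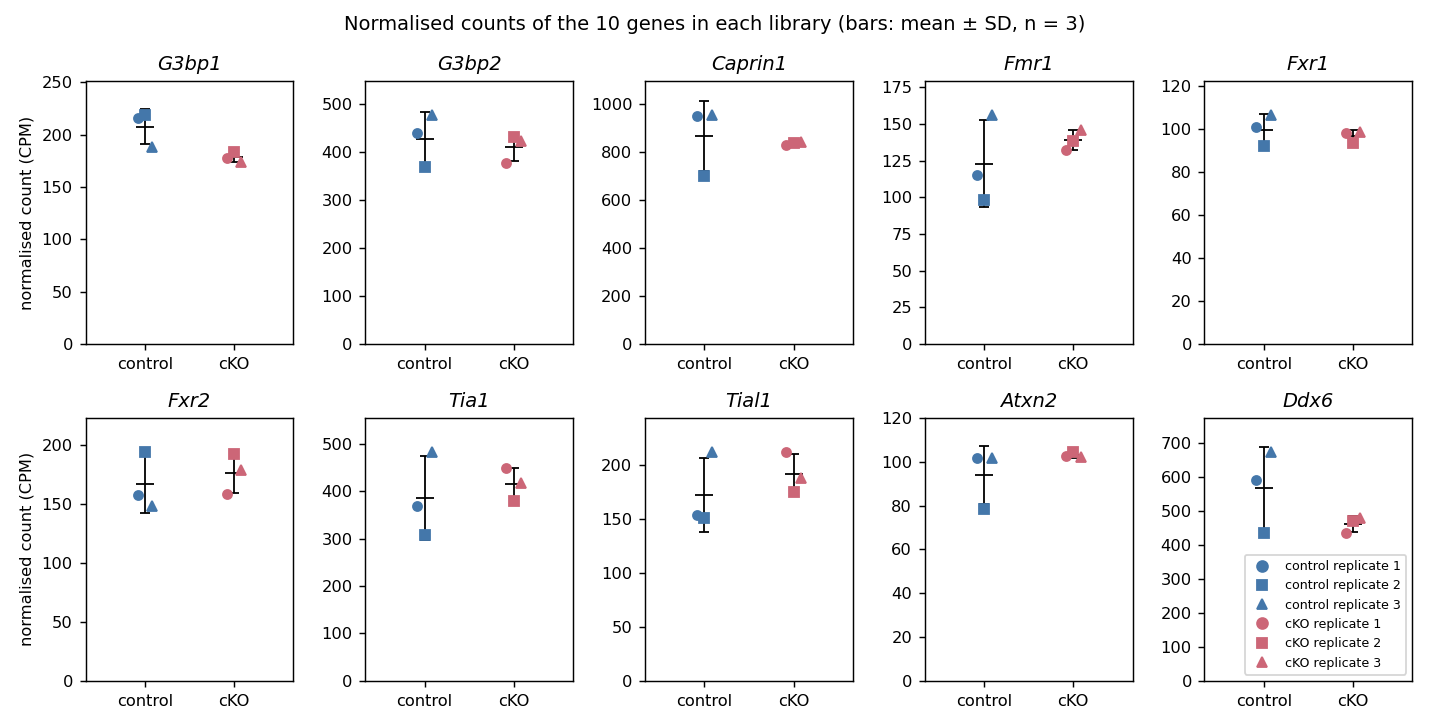
Normalised counts (CPM, y axis from 0) of each of the 10 genes in the 3 control (blue) and 3 cKO (red) libraries, 1 panel per gene, with symbols for replicate numbers and bars for the mean ± SD. The cKO points cluster more tightly than the control points in all 10 panels, and the groups are separate for G3bp1 and Atxn2.

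Control and cKO values were fully separate for 2 of the 10 genes, 1 lower in cKO (G3bp1) and 1 higher (Atxn2), where this held for 14.3% of all genes tested, 6.93% lower and 7.35% higher. With 10 genes this count is close to the background. The members differed more among controls than among cKO libraries. The range of CPM was wider in control than in cKO for 10 of 10 members, where it was wider for 77.2% of the 13556 genes above 0 in every library. For Caprin1 the control libraries spanned 0.447 and the cKO libraries 0.0244 on the log2 scale, for Atxn2 0.37 and 0.0336, and for Ddx6 0.63 and 0.142. In cKO libraries Caprin1 had 13186 to 13373 counts and Atxn2 1597 to 1658. Counting error alone gives a range of about that size or more at such counts, so the cKO ranges of Caprin1 and Atxn2 are near the limit of counting. Control replicate 2 was the lowest of all 6 libraries for 7 members (33.9% of all genes) and the highest for G3bp1 and Fxr2, and control replicate 3 was the highest for 7 members (21.0% of all genes). In sum the members' share of a library's counts was 0.312%, 0.267% and 0.338% in control and 0.306%, 0.301% and 0.308% in cKO.

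The mean profile of the members, each centred on its own mean log2 CPM, was 0.0103, -0.18 and 0.15 in the control and -0.0111, 0.00364 and 0.0229 in the cKO libraries. Most of this profile was the difference between the controls at -0.18 and 0.15, while the other libraries lay between -0.0111 and 0.0229. Outside the 10, the genes whose log2 CPM followed this mean most closely over the 6 libraries were Tardbp, Gdap1 and Klhl15, with Pearson r of 0.997, 0.997 and 0.997. They were picked for the highest r, which is high partly by that choice with so few libraries. Tardbp encodes TDP-43, an RNA-binding protein that itself enters stress granules and also stands in the list of stress granule partners given further on. Whether these genes are regulated together with the members was not tested. Among the 45 pairs of members, r was above 0 in 30 and below 0 in 15. The lowest after Fxr1 and Fxr2 was that of G3bp1 and Fmr1, at -0.834, and the highest after Tia1 and Tial1 was that of Fmr1 and Tia1, at 0.893.

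Per length, the members ranged widely in level. Caprin1 was the most abundant on the authors' TPM scale, with 485 ± 124 TPM (SD, n = 3) in control cortex and 513 ± 7.31 TPM in cKO cortex, and it was above every other member in all 6 libraries. It alone made up 24.8% to 29.2% of the members' summed TPM. G3bp2 followed at 233 ± 48.7 and 246 ± 16.2 TPM, Tia1 at 195 ± 54.7 and 227 ± 19.5 TPM, Ddx6 at 215 ± 62.4 and 191 ± 9.58 TPM, and G3bp1 at 182 ± 11.9 and 174 ± 3.80 TPM. Ddx6 was above Tia1 in all 3 control libraries, at 229, 147 and 269 TPM against 189, 144 and 253 TPM, and below it in all 3 cKO libraries, at 180.0, 193 and 199 TPM against 247, 208 and 228 TPM. This pair was picked out after its values were seen and was not tested. G3bp2 was above Tia1, and Ddx6 above G3bp1, in 5 of 6.

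At lower levels came Fxr2, with 132 ± 6.93 TPM in control cortex and 156 ± 14.4 TPM in cKO cortex, and Tial1 at 114 ± 28.8 and 139 ± 13.1 TPM, with Fxr2 above Tial1 in 4 of 6 libraries. Fxr1 was at 99.8 ± 15.8 and 108 ± 1.78 TPM and Fmr1 at 65.5 ± 20.8 and 81.0 ± 3.91 TPM. Atxn2 was the least abundant, at 52.0 ± 11.8 and 62.1 ± 0.543 TPM, and lay below Fmr1 in all 6 libraries. Even so, 79.2% of the genes in the table had a lower mean TPM than Atxn2, and 98.5% a lower one than Caprin1. The fragile X relatives kept the order Fxr2, Fxr1, Fmr1 in all 6 libraries, since no ratio of Fmr1 to Fxr1 or of Fxr1 to Fxr2 reached 1. On TPM the median of all genes tested was 0.141 higher in cKO on the log2(TPM + 1) scale, and that of the members 0.181 higher, so that 8 of 10 members were above 0 there. On this scale 0 of 10 members passed, and 1, Fxr2, had an unadjusted p-value under 0.05 (0.0491 by limma, adjusted p = 0.482).

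**Figure D3:**
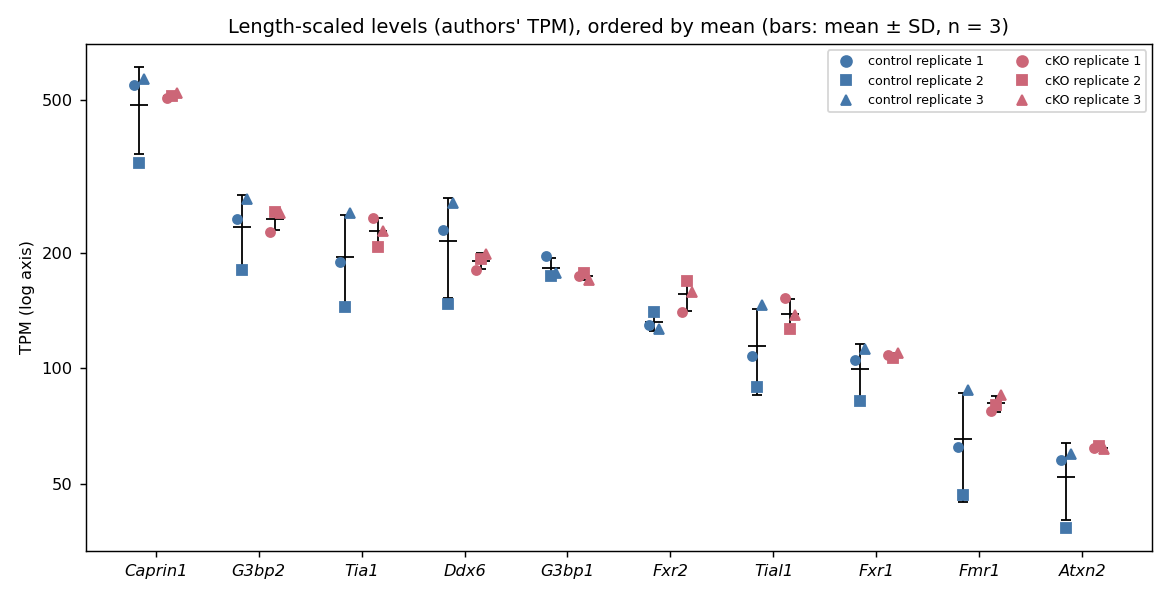
Levels of the 10 genes in TPM (y axis, log scale) in the 3 control (blue) and 3 cKO (red) libraries, ordered from left to right by the mean of all 6, with bars for the mean ± SD. Caprin1 is the highest and Atxn2 the lowest, and control replicate 2 (square) is low in most genes.

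Ratios between relatives within a library need no scaling between libraries, so they were compared separately, as 5 pairs. Trends with GC content do not cancel in them, and the ratios were not repeated with these trends removed. The GC content of the longest coding transcript was 58.5% for Fxr2, 39.4% for Fxr1 and 39.2% for Fmr1. The log2 ratio of G3bp1 to G3bp2 counts was -1.04 ± 0.294 (SD, n = 3) in control and -1.20 ± 0.10 in cKO (exact two-sided permutation test, p = 0.5). That of Fmr1 to Fxr1 was 0.28 ± 0.242 in control and 0.52 ± 0.0745 in cKO (exact two-sided permutation test, p = 0.2), the largest difference of the 5, at 0.24. For Fmr1 to Fxr2 it was -0.46 ± 0.530 and -0.34 ± 0.118 (exact permutation, p = 0.8), and for Fxr1 to Fxr2 it was -0.73 ± 0.309 and -0.86 ± 0.172 (exact permutation, p = 0.6). In the control libraries Fmr1 to Fxr2 spread the most.

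Tia1 to Tial1 was the ratio that varied least among the controls, at 1.16 ± 0.122 in control and 1.12 ± 0.0367 in cKO (exact two-sided permutation test, p = 0.6). As TPM it was 1.76, 1.62 and 1.74 in control and 1.61, 1.64 and 1.66 in cKO, so each library held more Tia1 than Tial1 mRNA per length. Adjusted over the 5 pairs, the p-values were 0.75 to 0.8. Of the 5 differences, 4 were smaller than the control SD and that of Fmr1 to Fxr1 was about as large, and with 3 libraries against 3 no p-value below 0.1 is possible.

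**Figure D4:**
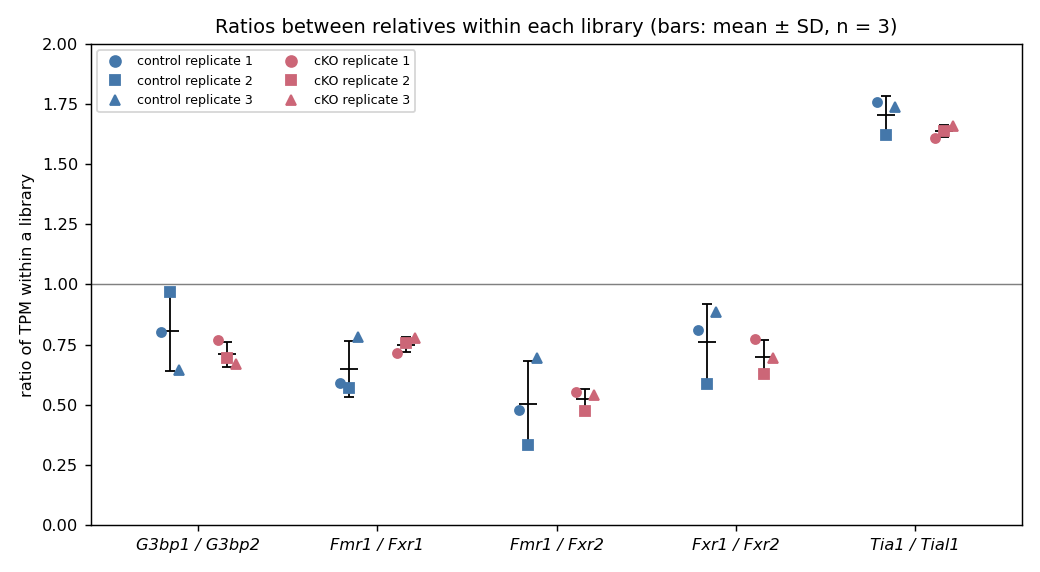
Ratio of TPM between relatives within each library (y axis from 0, line at 1) for the 5 pairs, in control (blue) and cKO (red), with bars for the mean ± SD. Tia1 exceeds Tial1 in all 6 libraries, and the other 4 ratios lie below 1 in all 6.

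The proteins that work with these 10 were followed as 4 lists. All genes of the lists were tested, and 0 passed after adjustment in either direction. Among 22 stress granule partners, 3 had an unadjusted p-value under 0.05, 1 higher and 2 lower (3.14% and 3.49% of all genes), with a list median of 0.00866. Those lower were the cytoplasmic poly(A)-binding proteins Pabpc1 and Pabpc4, which coat the poly(A) tail and bind ataxin-2. Pabpc1 was at 376, 376 and 362 CPM in control and 271, 290.4 and 275 CPM in cKO libraries. Its log2 fold change was -0.41 (standard error 0.10, unadjusted p = 0.00247, adjusted p = 0.380 by edgeR). The groups were separate, and the gap between the groups was wider than the spread within either. Pabpc1 passed in 4 of the 16 alternatives, namely DESeq2 (adjusted p = 0.00546), the removal of length and GC trends (0.0169), a variant of that removal (0.0303) and the fit without control replicate 2 (0.0414). Its adjusted p-values ranged from 0.00546 to 1 over the alternatives, with log2 fold changes from -0.45 to -0.27.

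Pabpc4 was at 112, 129.9 and 113 CPM in control and 90.3, 98.4 and 94.95 CPM in cKO libraries, with a fitted log2 difference of -0.32 (standard error 0.11, adjusted p = 0.580 by edgeR). Here too the groups were separate, as they were for 3 of the 22 partners lower and 1 higher in cKO (6.93% and 7.35% of all genes). In contrast, Fam120a, which encodes an RNA-binding scaffold protein, was at 140.3, 118 and 146 CPM in control and 165, 176 and 167 CPM in cKO libraries, with a fitted log2 difference of 0.33 (standard error 0.11, adjusted p = 0.607 by edgeR). Neither passed in any of the 16 alternatives. The second highest gene of the list was Prrc2c, at 0.22 (adjusted p = 0.90 by edgeR), which was at 363, 184 and 407 CPM in control and 348, 380.3 and 382 CPM in cKO libraries and was low in control replicate 2 alone.

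The 22 partners in P-bodies and mRNA decay, among them the decapping factors, CCR4-NOT subunits and Argonautes that act with DDX6, held 0 genes with an unadjusted p-value under 0.05. Their median was 0.0563, with log2 fold changes from -0.09 for the decapping scaffold Edc4 and -0.08 for Eif4enif1, which encodes the eIF4E-binding protein 4E-T, to 0.16 for the exonuclease Xrn1 and 0.49 for Ago2. Ago2 was at 61.9, 14.9 and 59.6 CPM in control and 55.1, 69.0 and 67.4 CPM in cKO libraries (adjusted p = 0.862 by edgeR), so that its fitted difference came from control replicate 2, without which it was 0.0706. Control and cKO values were separate for 1 of the 22 genes, where this held for 14.3% of all genes tested. It was Lsm14a, a DDX6-binding repressor named after its values were seen, at 108, 101 and 113 CPM in control and 122, 117 and 118 CPM in cKO libraries (log2 fold change 0.15, adjusted p = 0.840 by edgeR).

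Of 6 FMRP partners, 1 had an unadjusted p-value under 0.05, and the list median was 0.00141. Control and cKO values were separate for 2 of the 6 lower in cKO (Tdrd3 and Top3b) and 1 higher (Ranbp9), where 6.93% and 7.35% of all genes were. Tdrd3, which joins topoisomerase 3β to FMRP-bound mRNPs, was at 76.3, 75.1 and 85.8 CPM in control and 53.6, 65.3 and 63.2 CPM in cKO libraries. Its log2 fold change was -0.38 (standard error 0.12, unadjusted p = 0.0102, adjusted p = 0.520 by edgeR), and it passed in 1 of the 16 alternatives, a variant of the length and GC trend removal (adjusted p = 0.0358, range 0.0358 to 1). Top3b, the topoisomerase itself, was at 43.7 ± 2.25 and 38.9 ± 1.65 CPM (log2 fold change -0.17, adjusted p = 0.823). Cyfip2 and Ranbp9 were at 0.10 and 0.20 (adjusted p = 0.903 and 0.795).

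The 18 genes of neuronal transport granules, such as the Staufen, Pur, Cpeb and Pumilio families and the kinesins that move them, had a median of 0.0384 and 0 genes with an unadjusted p-value under 0.05. Log2 fold changes ran from -0.22 for the helicase Mov10 and -0.11 for Stau1 to 0.25 for Pura and 0.26 for Cpeb3. Adjusted p-values in this list were 0.832 or higher by edgeR. Control and cKO values were separate for 1 of the 18 genes, Stau1, which was lower in cKO, where this held for 6.93% of all genes. The lowest control and the highest cKO value of Stau1 were both 153 CPM at this rounding.

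**Figure D5:**
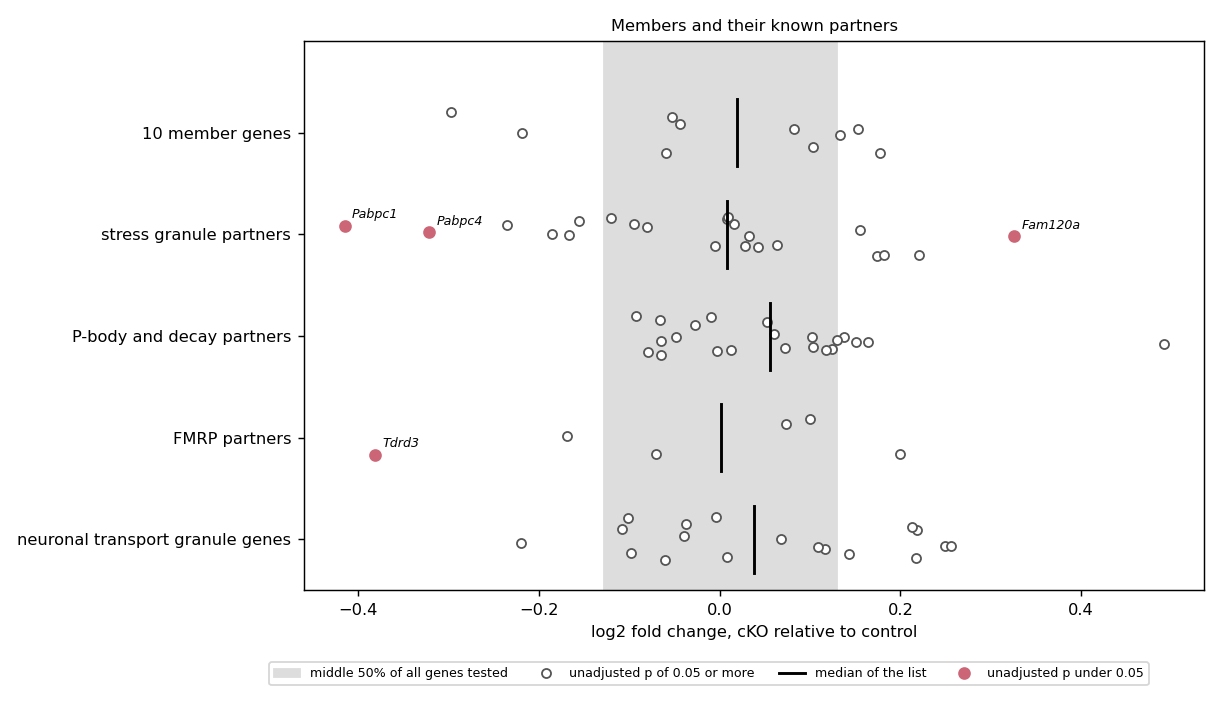
Log2 fold change in cKO relative to control cortex (x axis) of the 10 genes and of 4 lists of partners, 1 point per gene, with black bars for list medians and a grey band from -0.13 to 0.13 for the middle 50% of all genes tested. Filled points, all named, have an unadjusted p-value under 0.05, and none of the points passed after adjustment.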

How the data were processed

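The authors deposited 1 table of 27 columns. Of these, 18 hold estimated counts, TPM and FPKM for the 6 libraries and were used, and the others hold gene names and group means. The submitters' processing notes name HISAT2 2.2.1, Bowtie2 2.4.5, RSEM 1.3.1 and GRCm38 (mm10) without roles, and the methods name mRNA purification and DNBSEQ sequencing. The annotation is not given in the sources used here. The deposited estimated counts were rounded, filtered with filterByExpr, scaled by TMM and tested with edgeR 4.0.16 (quasi-likelihood, Benjamini-Hochberg over all genes) in R 4.3.3. Each standard error was the log2 fold change divided by the square root of F. The authors' TPM values served for levels and ratios, and the authors' TPM and FPKM values for fits with limma 3.58.1 on log2(value + 1), added after seeing the data. Relatives were aligned with Biopython 1.88 and compared with exact permutation tests (scipy 1.17.1). Alternatives were the replicate block, RLE factors, TMM without ribosomal protein genes, DESeq2 1.42.0, other filters, each library left out, and a smooth length and GC trend (mgcv 1.9.3; 96.7% of genes had both) removed per library. The fits were tested on simulated data. The members and lists were chosen with earlier results of these data known. Genes named are the members, Ybx1, Y-linked genes, the 2 lowest and 2 highest of each partner list with any passing the test, the 3 genes most like the members' mean, cortex markers and, outside this rule, Lsm14a. Figures used matplotlib 3.10.9. Some cortex markers of the list are not reported here.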

Additional observations from a re-analysis of the deposited data

How the results depend on the processing

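With 3 libraries a group, the 95% intervals of the members were wide. Of 10 members, 0 passed after adjustment under every alternative except 3, in which Ddx6 did. Whether the replicate numbers pair the samples is not known and was not tested. The series' description names sequencing batches but not which library was in which. Deviations of same-numbered control and cKO libraries correlated weakly, at 0.0884, 0.0615 and 0.23, and 1 of 3 pairs exceeded 0.1. All 6 libraries correlated best with their own number. With the replicate number as a block, 11 genes of all tested passed (10 without), and 0 members. Over all genes, 98 passed with DESeq2. Correcting for length and GC gave 184, or 173 when the replicate block was added. With the correction, 1 member passed after adjustment and 3 had an unadjusted p-value under 0.05, in both versions, as did 2 FMRP partners in both, 1 transport granule gene without the block and 6 stress granule partners with it. The share of all genes with an unadjusted p-value under 0.05 was not taken for any alternative. Such counts, here and below, therefore have no background beside them and are not read as a result about the members.

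On log2(TPM + 1), an alternative chosen after seeing the data, the members' median was 0.181, and an unadjusted p-value under 0.05 was found for 1 member, 2 stress granule partners (3 without this change), 1 P-body partner, 2 FMRP partners and 1 transport granule gene. On log2(FPKM + 1), also chosen after seeing the data, it was found for 0 members, 3 stress granule partners, 0 P-body partners, 2 FMRP partners and 0 transport granule genes. Signs reversed on the TPM scale for G3bp2 (0.0933), Caprin1 (0.115), Fxr1 (0.127), Edc4 (0.0525), Eif4enif1 (0.0706) and Stau1 (0.0405), and on the FPKM scale for Caprin1 (0.0107) and Fxr1 (0.0241). The causes were not tested.

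With each library left out in turn, 8 to 122 genes of all tested passed (122 without control replicate 2, 19 without control replicate 3), with 0 to 1 member, which was Ddx6 without control replicate 2. Unadjusted p-values under 0.05 were found for 0 to 3 members, 1 to 5 stress granule partners, and 0 to 2 genes of each of the other 3 lists, without the share of all genes in the same fits. The members' median ranged from -0.0678 to 0.031. Log2 fold changes ranged from -0.157 to 0.0254 for G3bp2, -0.185 to 0.0212 for Caprin1, -0.0986 to 0.0053 for Fxr1, -0.037 to 0.294 for Tia1, -0.0554 to 0.438 for Prrc2c, -0.131 to 0.00117 for Eif4enif1 and -0.109 to 0.40 for Xrn1. Differences in log2 ratio ranged from -0.312 to -0.0187 for G3bp1 to G3bp2, 0.152 to 0.382 for Fmr1 to Fxr1, -0.149 to 0.381 for Fmr1 to Fxr2 (below 0 without control replicate 2), -0.301 to -0.0014 for Fxr1 to Fxr2 and -0.109 to 0.0104 for Tia1 to Tial1 (above 0 without control replicate 1). The other genes refitted under each alternative kept their direction, but Lsm14a, the 3 genes most like the members' mean and the marker genes were not among them.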
